A study of Mus musculus with 19 samples.

Results

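Pre-mRNA splicing genes were examined for CBFA2T2 occupancy at their ends in mouse neural stem cells. The set held the RefSeq protein-coding genes of mm10 whose symbols begin with Snrp, Sf3a, Sf3b, Srsf, Prpf, Hnrnp or U2af, followed by a letter or digit as each family is numbered. These were 69 of 21887 protein-coding genes. The rule read symbols alone, but it was set with earlier results of these data known. They comprised 12 genes for small nuclear ribonucleoprotein (snRNP) proteins, 9 for subunits of SF3a and SF3b, 3 for U2AF proteins, 13 for PRP factors, 11 for SR proteins and 21 for heterogeneous nuclear ribonucleoproteins (hnRNPs).

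Splicing removes introns from a primary transcript in the spliceosome, which assembles anew on each intron from small nuclear RNAs and their proteins. U1 snRNP pairs with the 5′ splice site, U2AF binds the polypyrimidine tract and 3′ splice site, and U2 snRNP with SF3a and SF3b takes up the branch point. The tri-snRNP then joins, and PRP factors remodel the complex for catalysis. SR proteins mostly help exons to be recognised, and hnRNPs bind nascent RNA and often favour skipping. CBFA2T2 (MTGR1) is a corepressor of the MTG (ETO) family that is brought to DNA by other factors.

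The cells belonged to NE-4C, a line of mouse neural stem cells deficient in p53, and H3f3a, a gene for histone H3.3, had been knocked out in all of them. H3.3 with an HA tag was stably expressed in its place, as the wild-type protein (H3.3WT) or with methionine for lysine at residue 27 (H3.3K27M), a substitution found in diffuse midline glioma. Of 19 samples in the series, the CBFA2T2 chromatin immunoprecipitation (ChIP) of each of these genotypes is used, 1 library per genotype; the other libraries, among them those of H3.3WT cells with a Cbfa2t2 knockout, were not analysed here. The labels do not say whether a line was a single clone. With 1 library each there was no replicate error and no test of a difference between genotypes. Read depth is unknown, because the lists give peaks and no counts. The H3.3WT list held 6920 peaks and the H3.3K27M list 8272. Peaks do not measure expression, so the labelled cell type could be set only against peaks at marker genes. Of 8 neural stem cell markers none was marked in H3.3WT and 3 were marked in H3.3K27M (Nes, Vim and Hes1), while 5 neuronal and 3 astrocyte markers had no peak at their ends in either list. Of all protein-coding genes, 24.8% were marked in H3.3WT and 28.6% in H3.3K27M. Counts this small beside such shares do not decide whether the label holds.

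A gene is called marked in a list if a peak summit lay within 1 kb of either annotated gene end. The fold is the ratio of ChIP signal to local background at the summit, as the authors' peak caller gave it. Folds of both lists are given next to each other and not divided, since each list has its own depth and background.

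Sequences of 5 promoters are shown to give the sites that carried the highest folds in both lists and, as the last of them, the promoter of an snRNP gene without a peak. Each is the run of 250 bases before the annotated start on the gene's own strand, from RefSeq GRCm38.p6, the assembly of mm10. Capitals mark matches on either strand to the motifs described further on.
Prpf31, chr7:3629735-3629984, plus strand: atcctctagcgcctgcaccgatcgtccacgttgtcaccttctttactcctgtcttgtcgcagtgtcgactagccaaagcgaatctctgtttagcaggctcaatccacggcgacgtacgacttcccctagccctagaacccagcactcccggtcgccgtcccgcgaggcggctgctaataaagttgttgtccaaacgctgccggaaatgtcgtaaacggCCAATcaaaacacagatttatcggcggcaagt
U2af1l4, chr7:30563090-30563339, plus strand: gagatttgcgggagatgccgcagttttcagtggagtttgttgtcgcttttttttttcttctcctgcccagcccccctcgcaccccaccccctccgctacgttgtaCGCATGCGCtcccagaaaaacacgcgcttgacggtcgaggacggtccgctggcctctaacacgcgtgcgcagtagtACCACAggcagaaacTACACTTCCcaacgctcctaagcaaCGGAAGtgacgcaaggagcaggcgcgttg
Prpf4, chr4:62408533-62408782, plus strand: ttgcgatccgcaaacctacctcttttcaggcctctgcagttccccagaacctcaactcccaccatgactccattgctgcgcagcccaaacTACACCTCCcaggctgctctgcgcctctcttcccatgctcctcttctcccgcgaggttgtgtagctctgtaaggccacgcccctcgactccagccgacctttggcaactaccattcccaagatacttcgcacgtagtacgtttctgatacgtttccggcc
Snrpc, chr17:27839837-27840086, plus strand: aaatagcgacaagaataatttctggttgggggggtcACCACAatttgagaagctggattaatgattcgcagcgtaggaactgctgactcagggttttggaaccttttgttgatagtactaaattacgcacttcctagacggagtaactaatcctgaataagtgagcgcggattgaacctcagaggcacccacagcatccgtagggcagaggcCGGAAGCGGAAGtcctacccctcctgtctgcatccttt
Snrpd2, chr7:19149588-19149837, plus strand: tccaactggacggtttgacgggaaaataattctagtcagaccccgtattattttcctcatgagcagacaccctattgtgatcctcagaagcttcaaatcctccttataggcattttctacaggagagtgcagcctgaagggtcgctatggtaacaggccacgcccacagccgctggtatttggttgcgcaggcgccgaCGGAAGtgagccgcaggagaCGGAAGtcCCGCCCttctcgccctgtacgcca
The summits of the other four lay between 80 bp before and 43 bp after their starts in both lists, whereas Snrpd2 had no peak within 10 kb in either list. A table of 60 of the 69 members with their promoters was used. Prpf18, Sf3b4, Sf3b5, U2af2, Hnrnpll, Hnrnpul2, Snrpb and Snrpd1 were among those not in it.

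Most splicing genes carried CBFA2T2 at an end. In H3.3WT 53 of 69 members (76.8%) were marked, where 24.8% of all protein-coding genes were. In H3.3K27M 61 members (88.4%) were marked, against 28.6% of all genes. All 53 genes marked in H3.3WT were also marked in H3.3K27M, so 76.8% of members were marked in both lists beside 22.2% of all genes. None was marked in H3.3WT alone, beside 2.60% of all genes, and 8 members (11.6%) were marked in H3.3K27M alone, beside 6.39%. The count for H3.3WT alone depended on the peak limit. It was 7 when only peaks of at least 5 fold were taken, beside 3.86% of all genes. The count for H3.3K27M alone was then 6, beside 4.22%. The remaining 8 members had no boundary peak in either list. They were the Sm protein genes Snrpd2 and Snrpn, the SR protein gene Srsf12, and the hnRNP genes Hnrnpf, Hnrnph1, Hnrnpu, Hnrnpul1 and Hnrnpa1l2-ps2, whose symbol names it a pseudogene although it is annotated as protein-coding.

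**Figure D1:**
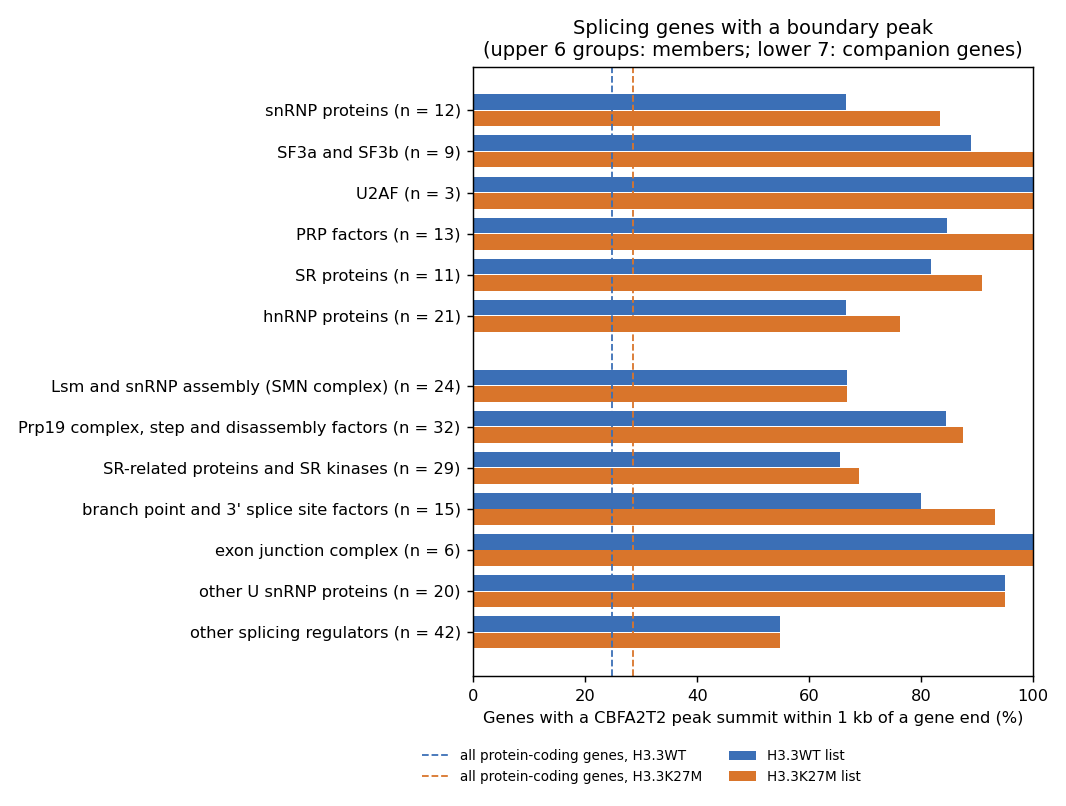
Percentage of genes with a CBFA2T2 summit within 1 kb of a gene end, for the 6 groups of members and 7 groups of companion splicing genes, with H3.3WT bars in blue and H3.3K27M bars in orange. Dashed lines give the shares of all protein-coding genes, 24.8% and 28.6%, and each group's bars pass them.

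The peaks at splicing genes were frequent rather than tall. The median fold at marked members was 7.12 in H3.3WT and 7.21 in H3.3K27M, where all marked genes had medians of 6.91 and 6.29. A fold of 10 or more was reached by 14 of 53 marked members (26.4%) in H3.3WT, beside 28.3% of all marked genes, and by 14 of 61 (23.0%) in H3.3K27M, beside 23.2%. Member folds spanned 3.67 to 30.6 in the H3.3WT list and 2.88 to 26.3 in the H3.3K27M list. The peaks were wider than those of all marked genes, with median widths of 699 and 747 bp against 553 and 598 bp.

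**Figure D2:**
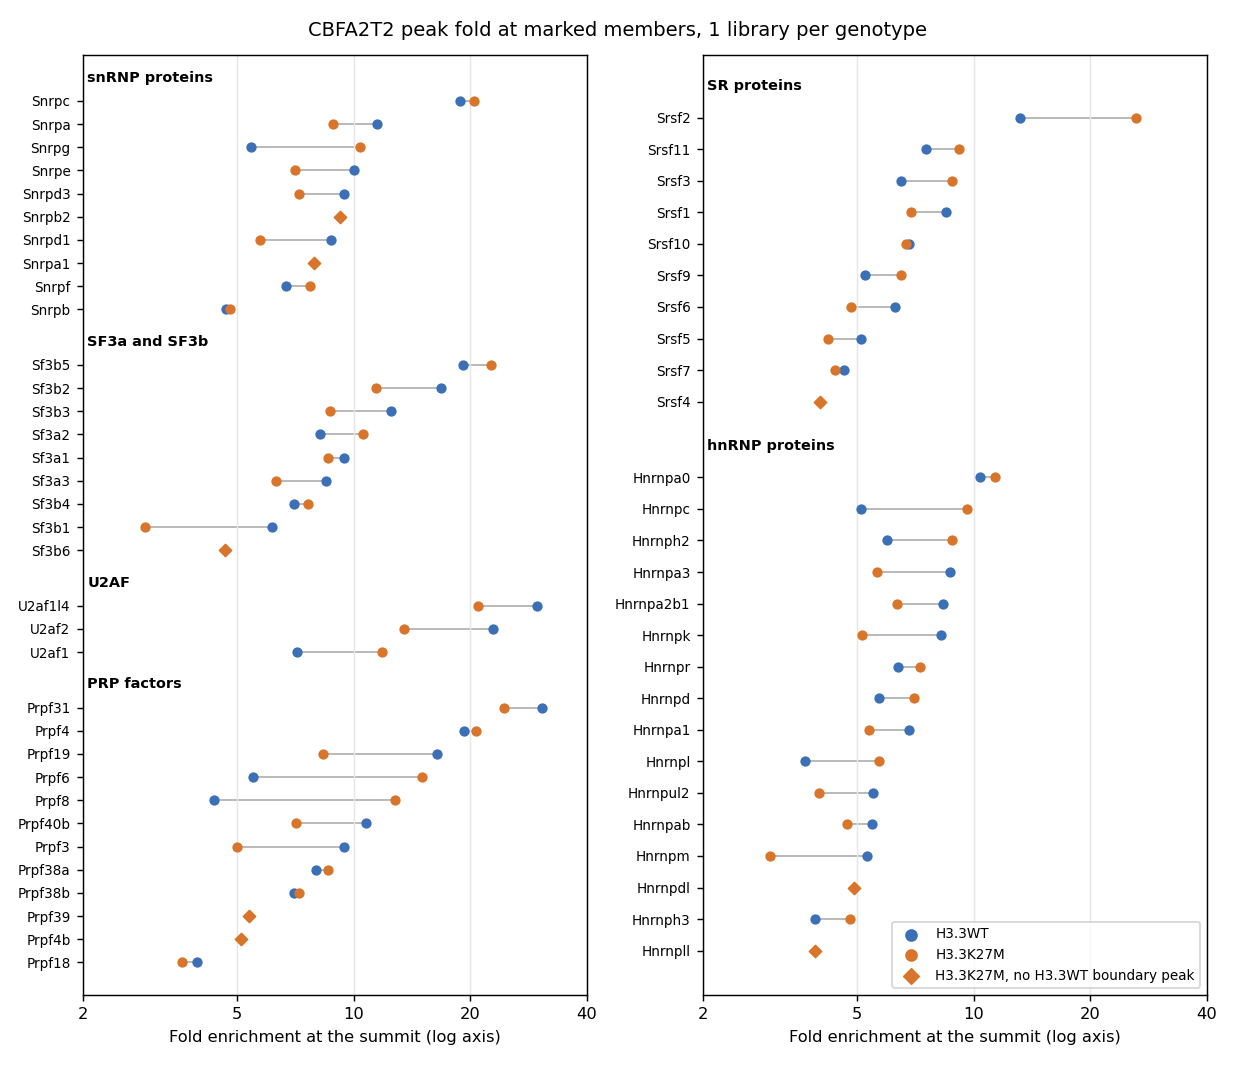
Fold enrichment (log axis) of the boundary peak at 60 of the 61 marked members, by family, with H3.3WT in blue, H3.3K27M in orange and a diamond where only the H3.3K27M list had a boundary peak. Prpf31 and U2af1l4 are farthest right in H3.3WT, and the hnRNP genes lie mostly below 10 fold.

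The 4 highest folds in H3.3WT were those of Prpf31, U2af1l4, U2af2 and Prpf4, and in H3.3K27M the highest 4 were those of Srsf2, Prpf31, Sf3b5 and U2af1l4. The U1 component gene Snrpc opened the snRNP group. Its peak (chr17:27839708-27840510 in H3.3WT) had 18.8 fold in H3.3WT, beside 20.4 in H3.3K27M, with summits 18 and 2 bp before the start. Snrpa, for the U1 A protein, had 11.5 and 8.86 fold. These were the highest snRNP values of the H3.3WT list, and both U1 genes were marked in both lists.

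Among genes for the Sm proteins, which form the ring around the snRNAs, 6 of 8 were marked in both lists. Snrpe had 10.0 fold in H3.3WT and 7.04 in H3.3K27M, Snrpd3 had 9.45 and 7.21, and Snrpd1 had 8.73 and 5.71. Snrpf had 6.67 and 7.71 fold, Snrpb 4.68 and 4.80. Snrpg stood at 5.42 fold in H3.3WT and 10.3 in H3.3K27M, so the order of the Sm genes differed between the lists. Snrpd2 had no boundary peak.

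Snrpn, for the neuronal Sm protein SmN in the imprinted Prader-Willi region, spans 467683 bp of chromosome 7 and has 4 annotated starts. No summit lay within 10 kb of its outer ends. Inside it, the H3.3WT list had 6 peaks and the H3.3K27M list 5. The tallest in H3.3WT, at 12.4 and 10.0 fold, lay 2952 and 1231 bp before the nearest annotated start, and their counterparts in H3.3K27M had 6.04 and 6.71 fold at 2888 and 1245 bp. In H3.3K27M 1 further peak of 4.69 fold lay 238 bp after that start.

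The U2 snRNP genes Snrpa1 (U2 A′) and Snrpb2 (U2 B″), whose products form a dimer on U2 snRNA, were both marked in H3.3K27M alone. Snrpb2 had 9.22 fold with a −log10 q of 17.6, and Snrpa1 had 7.87 fold with a −log10 q of 11.9. They were the strongest of the 8 members marked in that list alone, and the H3.3WT list had no peak within 10 kb of Snrpb2 and 1 of 4.72 fold at 5011 bp from Snrpa1.

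SF3a and SF3b hold U2 snRNP at the branch point. All 9 of their genes were marked in H3.3K27M and 8 in H3.3WT. Sf3b5 was the tallest, with 19.2 fold in H3.3WT (chr10:13008064-13008851) and 22.7 in H3.3K27M. Sf3b2 came next, with folds of 16.8 (H3.3WT) and 11.4 (H3.3K27M). Sf3b3 had 12.5 and 8.69 fold at the boundary it shares with the Golgi gene Cog4. The SF3a genes were close to each other, Sf3a1 at 9.42 and 8.55 fold, Sf3a2 at 8.19 and 10.5, and Sf3a3 at 8.47 and 6.30.

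Sf3b4 had 7.02 fold in H3.3WT and 7.62 in H3.3K27M. Sf3b1, for the largest SF3b subunit and a frequent target of mutation in myelodysplasia, had 6.14 fold in H3.3WT. In H3.3K27M its peak had 2.88 fold with a −log10 q of 3.14, the lowest fold of all marked members in that list. Sf3b6 (p14), which touches the branch point adenosine, was marked in H3.3K27M alone at 4.65 fold. In H3.3K27M the folds of SF3b genes thus ran from 2.88 to 22.7.

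U2AF genes had the highest median of the 6 groups, 22.8 fold in H3.3WT and 13.5 in H3.3K27M, over 3 genes, with U2af2 as the middle one. U2af1l4, a relative of the small subunit, had 29.6 and 20.9 fold (chr7:30562976-30563757 in H3.3WT) at a boundary shared with Psenen, for a subunit of gamma-secretase. U2af1, the small subunit that reads the AG of the 3′ splice site, had 7.12 fold in H3.3WT and 11.8 in H3.3K27M.

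U2af2, for the large subunit, is the case in which the boundary rule takes in a neighbour. The peak that stood for it, 22.8 fold in H3.3WT and 13.5 in H3.3K27M, lay 230 and 231 bp beyond its higher end and 38 and 39 bp inside Epn1, an endocytic adaptor gene, next to an annotated end of that gene. Inside U2af2, peaks of 11.2 and 9.07 fold lay 1469 and 1493 bp from its lower end, outside the limit. In H3.3K27M a weaker peak of 3.26 fold lay 305 bp inside that end.

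PRP factors were all marked in H3.3K27M, 13 of 13, and 11 were marked in H3.3WT. Prpf31, which stabilises the U4/U6.U5 tri-snRNP and is mutated in a form of retinitis pigmentosa, had the tallest H3.3WT peak of the whole set. Its fold was 30.6 in H3.3WT (chr7:3629521-3630266) and 24.4 in H3.3K27M, with the summit at the same base in both lists, 63 bp before the start. That site also lies 7 bp from the end of Tfpt, a gene of the INO80 complex on the other strand. Prpf4, a U4/U6 protein, had 19.3 and 20.7 fold at the boundary with Cdc26, a subunit of the anaphase-promoting complex.

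Prpf19, the ubiquitin ligase of the catalytic spliceosome, had 16.4 fold in H3.3WT and 8.32 in H3.3K27M. Prpf40b had 10.7 and 7.08 fold, and Prpf3, for another tri-snRNP protein, had 9.45 and 4.99. Prpf6 and Prpf8 had higher numbers in the H3.3K27M list. Prpf6, which bridges U5 and U4/U6, had 5.50 fold in H3.3WT and 15.0 in H3.3K27M, and Prpf8, the scaffold of the active site, had 4.36 and 12.7. Their −log10 q was 6.69 and 9.32 in H3.3WT and 38.7 and 39.8 in H3.3K27M.

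Of the other PRP factors, Prpf38a had 8.0 and 8.56 fold and Prpf38b 7.0 and 7.21. Prpf18 was low in both lists, at 3.93 and 3.60 fold. Prpf39 and the kinase gene Prpf4b were marked in H3.3K27M alone, at 5.36 and 5.12 fold, with no H3.3WT peak within 10 kb. The Prpf39 summit lay 171 bp after its annotated start. That of Prpf4b lay 1014 bp before its start, within the span of the long noncoding RNA gene Gm36839.

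The SR protein gene Srsf2, whose product binds exonic enhancers and which is mutated in myeloid neoplasms, had the tallest H3.3K27M peak of the set. Its fold was 13.1 in H3.3WT (chr11:116852870-116854024) and 26.3 in H3.3K27M. Summits lay 22 and 30 bp outside the annotated gene and 603 and 611 bp before the start in the promoter table. The other SR genes marked in both lists were lower, between 4.63 fold (Srsf7) and 8.47 fold (Srsf1) in H3.3WT and between 4.2 fold (Srsf5) and 9.17 fold (Srsf11) in H3.3K27M.

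Srsf3 had 6.47 fold in H3.3WT and 8.76 in H3.3K27M, Srsf10 had 6.78 and 6.69, Srsf6 had 6.24 and 4.82, and Srsf9 had 5.23 and 6.47. Srsf4 was marked in H3.3K27M alone at 4.01 fold with a −log10 q of 5.20. Srsf12 had no peak within 10 kb in either list. Srsf2 thus had the highest fold of its family in both lists.

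The hnRNP genes had the lowest median fold of the 6 groups, 5.83 in H3.3WT and 5.49 in H3.3K27M, and the largest number of unmarked genes, 5 of 21. Hnrnpa0 had 10.4 and 11.3 fold and was the only hnRNP gene with a boundary peak above 10 fold in either list. Hnrnpa3 had 8.66 and 5.63 fold, Hnrnpa2b1 8.31 and 6.34, Hnrnpk 8.25 and 5.15, and Hnrnpa1 6.78 and 5.35. Each of the last 4 had the higher number in H3.3WT, which did not hold for the family as a whole. Hnrnpc, whose product binds uridine tracts, had 5.10 fold in H3.3WT and 9.62 in H3.3K27M, and Hnrnph2 had 5.96 and 8.75.

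Of the other hnRNP genes, Hnrnpr had 6.38 and 7.26 fold, Hnrnpd 5.70 and 7.0, Hnrnpab 5.47 and 4.69, and Hnrnpul2 5.50 and 3.97. Hnrnpm had 5.31 fold in H3.3WT and 2.97 in H3.3K27M, Hnrnpl 3.67 and 5.69, and Hnrnph3 3.89 and 4.79. By its boundary peak, Hnrnpl was the lowest marked member of the H3.3WT list. That peak lay 1659 bp from its annotated start in H3.3WT and 1886 bp in H3.3K27M. Further Hnrnpl peaks, outside the limit, had 7.27 fold in H3.3WT and 3.69 in H3.3K27M, at 247 and 36 bp after that start. The higher number was thus in H3.3K27M at the boundary and in H3.3WT at the start. Hnrnpdl and Hnrnpll were marked in H3.3K27M alone, at 4.90 and 3.88 fold. Hnrnpdl held a further peak inside the gene in both lists, of 5.86 fold in H3.3WT and 6.59 in H3.3K27M at 1121 and 1038 bp from its end, so H3.3WT cells also had a peak there, just outside the limit.

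The hnRNP peaks were also the broadest in H3.3K27M. Their median width was 778 bp in H3.3WT and 1106 bp in H3.3K27M, where the other 5 groups had medians from 570 to 860 bp in H3.3K27M. The median gap between the summits of the 2 lists was 160.5 bp at hnRNP genes and between 17 and 52 bp in the other groups. Over all 53 members marked in both lists the median gap was 53 bp, against 41 bp over 4857 genes. The widest gap, 579 bp, was at Hnrnpa1.

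Several of the unmarked hnRNP genes had peaks at starts inside the annotated gene, which a rule on outer ends does not count. Hnrnpf, with 4 annotated starts, had H3.3WT peaks of 4.71 and 3.70 fold at 79 and 26 bp before internal starts. In H3.3K27M its peaks had 4.94 fold 136 bp after a start and 6.84 fold 117 bp before another. Hnrnph1 had 5.33 fold in H3.3WT and 4.70 in H3.3K27M, at 3 and 7 bp after internal starts.

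Hnrnpul1 had 4.80 fold in H3.3WT, 246 bp before its annotated start and 1263 bp inside its outer end, with no H3.3K27M peak at that place. Hnrnpu, for a nuclear scaffold protein, had peaks of 6.27 and 10.6 fold that lay 1377 and 1251 bp after its start, beyond the limit. Hnrnpa1l2-ps2 had no peak within 10 kb. With a summit within 1 kb of an end or an annotated start, the H3.3WT list marked 57 members and the H3.3K27M list 64. By the same rule 26.7% and 30.9% of all protein-coding genes were marked. This count was added after the peaks were seen.

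The limit of 1 kb passed between few members. Just inside it were Srsf1, with summits 1000 and 963 bp from an outer end but 126 and 89 bp from its annotated start, Hnrnpk at 713 and 873 bp, Hnrnpl at 685 and 458 bp, Hnrnpa1 at 684 and 105 bp and Srsf5 at 382 and 606 bp. Just outside it were Hnrnpdl at 1121 bp in H3.3WT and Hnrnph1 at 2288 and 2547 bp. Hnrnpul1 was also outside it at 1263 and 2139 bp, and Hnrnpu at 2215 and 2327 bp. For these latter genes the nearest summits of the lists lay at opposite ends of the gene. No member lay between 1000 and 1121 bp in either list by its nearest summit.

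**Figure D3:**
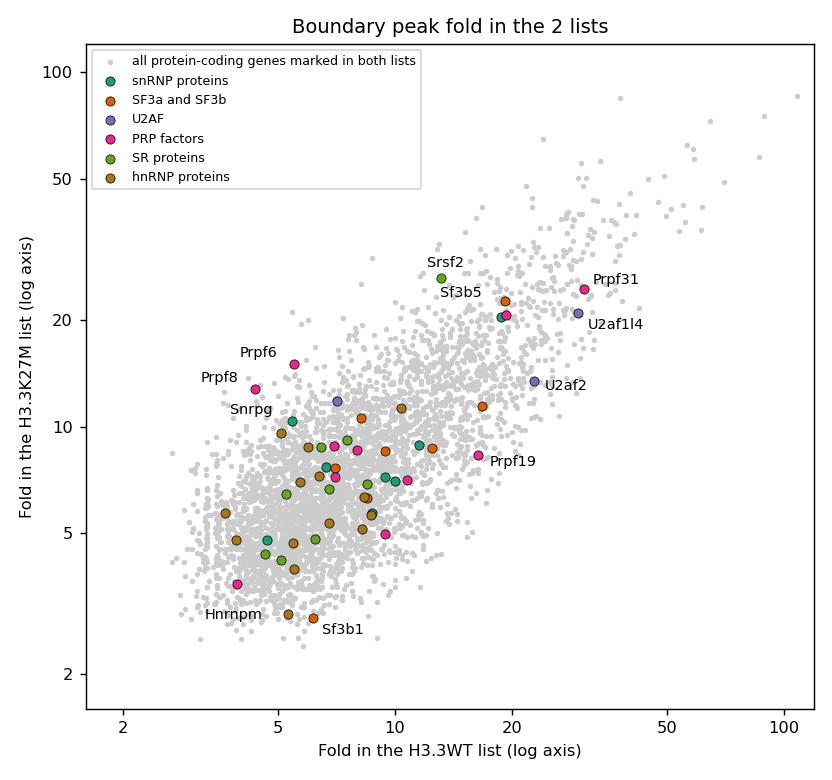
Fold of the boundary peak in the H3.3WT list (x, log axis) against the H3.3K27M list (y, log axis) for genes marked in both, with all protein-coding genes in grey and the 53 members coloured by family. Members spread across the grey cloud, with Prpf31 and U2af1l4 at the upper right and Srsf2, Prpf6 and Prpf8 above it on the H3.3K27M side.

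Across the 53 members marked in both lists, the fold of H3.3WT and that of H3.3K27M had a Spearman coefficient of 0.561, and across all 4857 such genes one of 0.703. These coefficients run across genes of the same pair of libraries, and genes are not replicates. The number was higher in H3.3WT for 28 of the 53 members (52.8%) and for 53.4% of all genes, so no direction was common to the set.

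Summits sat at the transcription start. Among the 60 members of the promoter table, 49 (81.7%) had a summit within 1 kb of an annotated start in H3.3WT, where 26.7% of all 17492 genes of the table did. In H3.3K27M 54 members (90.0%) had one, beside 30.9%. The median distance of boundary summits from the nearest start was 90.0 bp at 45 members in H3.3WT and 90.5 bp at 52 members in H3.3K27M, against 92 and 98 bp over all marked genes. Within 200 bp lay 88.9% of these members in H3.3WT and 75% in H3.3K27M, against 74.6% and 72.3% of all marked genes. The summit was on the upstream side in 57.8% and 59.6% of members, against 60.2% and 55.9% of all marked genes.

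**Figure D4:**
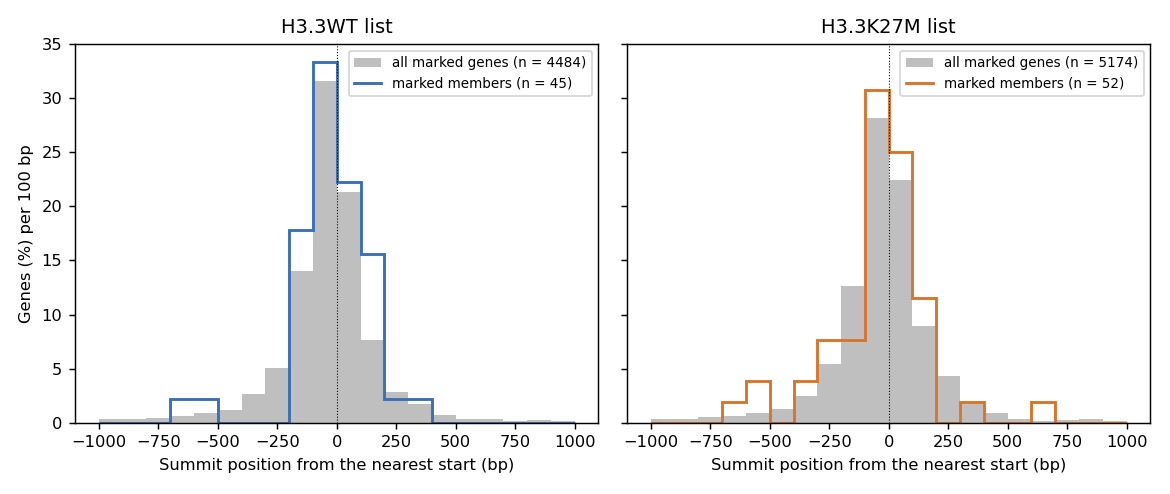
Share of marked genes per 100 bp of distance from the nearest annotated start to the summit (bp, negative upstream), in each list, with all marked genes in grey and members as a coloured outline. Members and all marked genes peak within 100 bp of the start in both lists.

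Some boundary peaks lay near an end of another gene, whether its start or its far end, in shares close to those of all marked genes. The boundary peak also lay within 1 kb of an end of another protein-coding gene at 22 of 53 marked members (41.5%) in H3.3WT, beside 36.8% of all marked genes, and at 24 of 61 (39.3%) in H3.3K27M, beside 34.7%. At such sites the peak cannot be assigned to either gene. Hnrnpa1 and Hnrnpa2b1 share theirs with Cbx5 and Cbx3, genes for the heterochromatin proteins HP1 alpha and HP1 gamma. Srsf7 faces Gemin6, for a subunit of the SMN complex that loads Sm rings, so that both genes of this pair serve splicing. Hnrnpk faces Rmi1, for a partner of the BLM helicase, and Snrpd3 faces Gucd1.

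Promoter motifs were counted in windows of 250 bases before to 50 after each start, on both strands, for 12 motifs and for 2 more that were added after the promoter sequences had been seen. A gene counted once if the window of any of its starts held the motif, so genes with more starts had more windows. The ETS site CCGGAAGT, bound by factors such as GABPA and ELK, stood at 11 of 60 members (18.3%). Of all genes of the promoter table, 5.69% had it. Genes marked in both lists had it in 15.0% and genes without a boundary peak in 2.27%. The shorter core CGGAAG, 1 of the added motifs, stood at 53.3% of members, 48.6% of genes marked in both lists and 13.8% of those without a boundary peak. Members thus resembled other marked genes in ETS sites. The matches at 8 members are shown with 10 bases on either side, in capitals CCGGAAGT or its reverse complement.
Sf3a1, chr11:4160337-4160364, plus strand: gagggcgggaCCGGAAGTgctcccgcgg
Sf3a3, chr4:124714760-124714787, plus strand: cccccaagacACTTCCGGgacacgcgga
Sf3b2, chr19:5295451-5295478, minus strand: gattacgcaaCCGGAAGTttctggaagt
Snrpe, chr1:133610257-133610284, minus strand: ggtcttgcttCCGGAAGTcgctttccga
Prpf6, chr2:181601329-181601356, plus strand: ccagctctctACTTCCGGtgcgcgggtg
Prpf4b, chr13:34875448-34875475, plus strand: ccccctagccCCGGAAGTtacgttccgc
Srsf4, chr4:131873416-131873443, plus strand: ccgcgcaggcACTTCCGGgggaagtgcc
Hnrnpd, chr5:99979100-99979127, minus strand: tgcgcacgccACTTCCGGtcctctttaa
Of these 8 genes, Prpf4b and Srsf4 were marked in H3.3K27M alone and the others in both lists. The Prpf4b match lay 947 bp from the H3.3K27M summit, outside the peak, and the Srsf4 match 55 bp from it. The Hnrnpd match lay 129 and 347 bp from the H3.3WT and H3.3K27M summits. Distances were 152 and 144 bp at Sf3a1, 72 and 35 at Sf3a3, and 47 and 83 at Sf3b2. They were 44 and 87 bp at Snrpe and 44 and 37 at Prpf6. The remaining matches were at Srsf5, Srsf11 and Hnrnpf, the last of which had no boundary peak.

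The other added motif was TACANNTCC, where N is any base, the core of the element named GFY in motif collections and known from promoters with ZNF143 and THAP11. Its last letters can overlap an ETS site, as CCGGAAGT itself contains the shorter core. It stood at 5.61% of all genes of the promoter table, at 3.28% of those without a boundary peak and at 13.2% of those marked in both lists. Its share went up with the fold. Of 2444 genes marked in both lists with under 10 fold in each, 6.87% had it. Of 912 with at least 10 fold in each, 28.0% had it, and of 197 with at least 20 fold in each, 41.6%. The ETS site had shares of 14.0%, 14.6% and 12.2% in the same classes.

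The GFY letters stood at 4 of 60 members (6.67%). These were U2af1l4, Prpf4, Sf3b2 and Prpf19, all among the 10 members with the highest H3.3WT fold. Only U2af1l4 and Prpf4 were among the 10 highest in H3.3K27M. The motif was added after promoter sequences had been seen, and those of U2af1l4 and Prpf4 were printed above for their high folds. Its presence at members of high fold is therefore not independent of how it was found. The matches at the 4 members are shown with 10 bases on either side, in capitals TACANNTCC or its reverse complement.
U2af1l4, chr7:30563276-30563304, plus strand: aggcagaaacTACACTTCCcaacgctcct
Prpf4, chr4:62408613-62408641, plus strand: cagcccaaacTACACCTCCcaggctgctc
Sf3b2, chr19:5295568-5295596, minus strand: atccgcaaacTACAACTCCcagaaggctc
Prpf19, chr19:10895102-10895130, plus strand: cagcctcatgGGAAATGTAgtttcttctc
Of the 7 members in the promoter table with at least 10 fold in each list, 3 held a match, and of the 28 with under 10 fold in each, none did. The RUNX motif TGTGGT had the same split among members, 3 of 7 and 0 of 28, although over all genes its share was 13.4%, 13.8% and 16.2% in the 3 fold classes, so these few members do not set GFY apart. The match lay 15 and 93 bp from the H3.3WT and H3.3K27M summits at U2af1l4, 76 and 130 bp at Prpf4, and 27 and 1 bp at Prpf19. At Sf3b2 it lay 71 and 35 bp from them. The letters were not in the windows of Prpf31 or Snrpc, whose summits lay inside them, so tall peaks occurred with and without a match in the window. The window of Srsf2 also lacked them, but its summits lay 603 and 611 bp from the start, outside the window. Whether the letters stood at the Srsf2 peak was not tested.

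**Figure D5:**
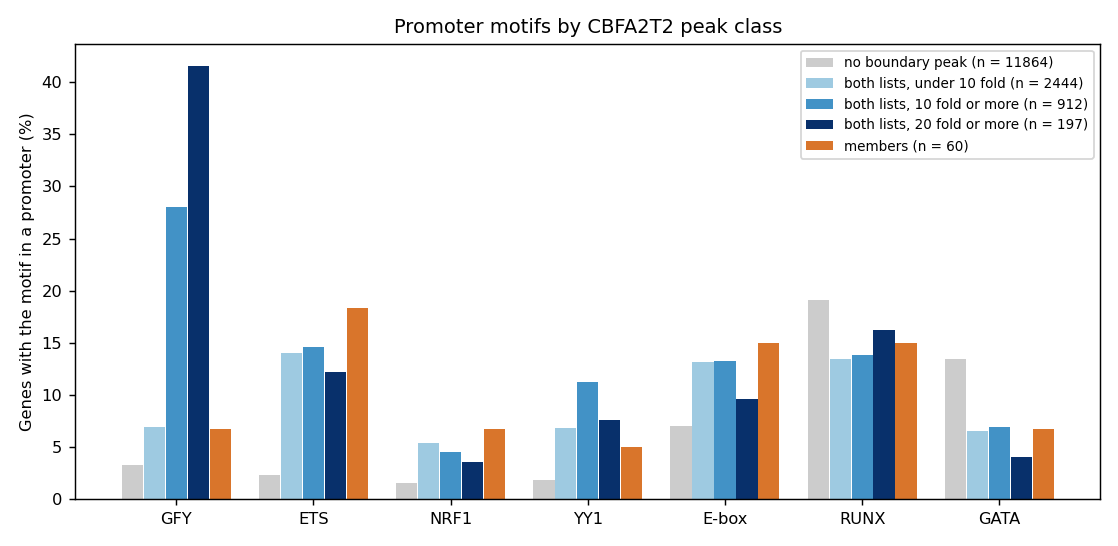
Percentage of genes with each motif in a promoter window, for genes without a boundary peak, genes marked in both lists by fold class, and the 60 members of the promoter table. The GFY bars rise from 3.28% without a peak to 41.6% at 20 fold or more, while the ETS bars differ mainly between genes without a peak (2.27%) and all other classes.

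Of the remaining motifs, the GC box GGGCGG stood in a promoter of 66.7% of members against 49.2% of all genes, and the CCAAT box in 51.7% against 42.3%. NRF1 sites (GCGCATGCG) stood in 6.67% against 2.61%, and the E-box CACGTG in 15.0% against 8.91%. Genes marked in both lists had the GC box in 67.1%, the CCAAT box in 43.4%, NRF1 sites in 5.29% and the E-box in 13.3%. The RUNX motif TGTGGT stood in 15.0% against 17.2%, the E-protein box CAGCTG in 10.0% against 17.4% and the GATA-factor motif AGATAA in 6.67% against 11.2%. In genes marked in both lists these 3 stood in 13.6%, 14.3% and 6.58%. RUNX and E-protein motifs were searched because MTG proteins are known as partners of E proteins and, in leukaemia, as fusions with RUNX1. The TATA box TATAAA stood in 13.3% against 14.8%, YY1 (AAGATGGC) in 5.0% against 3.57%, and ZBTB33 (CTCGCGAGA) and CRE (TGACGTCA) in 3.33% each against 1.08% and 2.54%. Genes marked in both lists had the TATA box in 7.97%, YY1 in 8.26%, ZBTB33 in 2.7% and CRE in 5.19%. A match of letters is not a bound site.

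Splicing genes with other symbols were marked in similar shares. Of 168 companion genes, the H3.3WT list marked 122 (72.6%) and the H3.3K27M list 126 (75%), beside 24.8% and 28.6% of all protein-coding genes. In both lists 115 were marked, beside 22.2% of all genes. In H3.3WT alone 7 of the 168 companions were marked, beside 2.60% of all genes. In H3.3K27M alone 11 were, a share close to the 6.39% of all genes. Other U snRNP proteins had 19 of 20 marked in both lists, with only Snrnp25 of the minor spliceosome unmarked. Sart3, which recycles U4/U6, had 36.9 fold in H3.3WT and 25.5 in H3.3K27M, with summits 589 and 646 bp from an end. Txnl4b had 31.9 and 23.3 fold, and the U5 GTPase gene Eftud2 15.2 and 21.1. Peaks shared with neighbours were not counted for companions. Gemin6 was marked through the peak it shares with the member Srsf7.

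All 6 exon junction complex genes were marked in both lists, with the helicase gene Eif4a3 at 21.2 and 16.7 fold. Of 32 genes for Prp19 complex and step factors, 27 were marked in H3.3WT and 28 in H3.3K27M. Cwc22, which loads EIF4A3 on the spliceosome, had 30.1 fold in H3.3WT and 55.3 in H3.3K27M, and Xab2 had 21.7 and 47.8, so both passed every member in the H3.3K27M list. Branch point and 3′ splice site factors had 12 and 14 of 15 marked, with the helicase gene Ddx39b at 18.6 and 24.1 fold and Puf60 at 19.2 and 17.8.

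Shares were lower in the other 3 groups. Lsm and SMN complex genes had 16 of 24 marked in each list, SR-related genes and SR kinases 19 and 20 of 29, and other splicing regulators 23 of 42 in each. Among these, Tial1 had 22.2 and 21.7 fold, Pcbp1 17.3 and 16.4, and the SR-like gene Scaf1 21.1 in both lists. The lowest share, 54.8%, was in the group of regulators that includes tissue-restricted genes such as Rbfox, Nova and Elavl, and it exceeded the shares of all protein-coding genes, 24.8% and 28.6%. Across the 7 companion groups the share in H3.3WT thus ran from 54.8% to 100% (the exon junction complex), as the plot of shares by group shows.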

How the data were processed

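CBFA2T2 ChIP-seq peak lists of 2 libraries were used, grouped by the genotype and antibody in the labels. The submitters' processing notes name Trim Galore for read trimming, MACS2 for peak calling and the build mm10. Versions, aligner and duplicate handling are not given in the sources used here. By the names of the deposited peaks, a list was called from 1 ChIP library and an input. The authors deposited a score per peak (not used), a fold ratio, −log10 p and −log10 q, and a summit offset, and the smallest −log10 q of 1.33 and 1.31 shows a q limit of 0.05.

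The peak of highest −log10 q stood for a gene. Gene ends, starts and promoters came from RefSeq GRCm38.p6, with coordinates 1-based. No test was made. Python 3.11.15 with pandas 2.3.3 and numpy 2.4.6 was used, and the counting was tested on simulated peaks.

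Members, companion lists and motifs were chosen with earlier results of these data known. Named with full values were the 10 members of highest fold per list, members marked in a single list, unmarked members, those nearest the limit, and up to 3 companions per group by −log10 q. The values of 1 member are not reported here, although counts include it. Any other gene named was picked with its values known. The alternatives tried were stricter peaks, equal peak numbers, other windows and other overlaps.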

Additional observations from a re-analysis of the deposited data

How the results depend on the processing

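The count of members marked in H3.3WT alone, 0 by the boundary rule, was 7 with peaks of at least 5 fold, 2 with −log10 q of at least 5, 2 with equal numbers of peaks per list, 1 with a window of 500 bp, 1 with the start only and 1 with either an end or a start, the last added after seeing the data. The 7 had under 5 fold in H3.3K27M and were Sf3b1, Prpf3, Srsf5, Srsf6, Hnrnpab, Hnrnpm and Hnrnpul2. The 72 other values stayed within 1.5 times the main value or, for medians, within its 95% interval. Across all settings the H3.3WT list marked 47 to 57 members, beside 19.1% to 28.2% of all protein-coding genes. The H3.3K27M list marked 46 to 64, beside 19.4% to 32.3%. With peaks of at least 5 fold the lists marked 47 (H3.3WT) and 46 (H3.3K27M) members. In that setting 7 were marked in H3.3WT alone, beside 3.86% of all genes, and 6 in H3.3K27M alone, beside 4.22%. The larger H3.3K27M counts of the main rule were thus not kept there. No paired analysis was possible because each genotype had 1 library and no test was made. Depth, unknown here, sets which weak sites enter a list.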
